A study of Mus musculus with 8 samples.

Results

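The genes described here encode 9 hydrolases and peptidases of the brush border, the carpet of microvilli on the luminal face of the gut epithelium. They are the disaccharidases Sis, Lct and Treh and the peptidases Naaladl1, Mep1a, Mep1b, Enpep, Dpp4 and Anpep. All 9 had a probe set annotated to that gene alone, among 30747 named genes on the array. Mep1b had 2 such probe sets and the other members 1 each, and the brightest by mean over the 8 arrays was used. The members were chosen with the inflamed against control contrast already known. Their values in that contrast are therefore given as a description, with no test of a member.

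The inflamed mice were 3 Rag1-/- animals of the C57BL/6 strain injected with naïve T cells and killed with severely inflamed colons. The controls were 5 Rag1-/- C57BL/6 mice injected with regulatory T cells (Treg), whose colons were labelled non-inflamed. Loss of Rag1 blocks the maturation of T and B cells, so in both groups any T cells derived from the transfer, whereas innate cells belonged to the host. Injection was at 10 weeks of age and killing 2 to 4 months afterwards, and the labels give an age of 4 to 5 months for every animal. The sample protocol names distal colon whereas the series design names a strip from cecum to rectum, so the sampled region is uncertain. RNA from each mouse was hybridised to 1 array, and all values below are log2 intensities as the authors deposited them. The values cannot separate fewer cells of a type from less RNA per cell, since the samples are whole tissue.

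Brush border enzymes finish digestion at the surface of the enterocyte, where disaccharidases split sugars and peptidases trim oligopeptides before uptake. They are made by mature absorptive cells, are most abundant in the small intestine, and several are used as markers of enterocyte differentiation. The homeobox factor CDX2 is known to act on the promoters of Sis and Lct. Anpep (CD13), Dpp4 (CD26) and Enpep are also made outside the epithelium, by myeloid cells and fibroblasts, by T cells, and by pericytes and other vascular cells.

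Promoter sequences are shown for Sis, the member with the largest difference, for Lct, a disaccharidase that stayed at background, and for Anpep, the member whose inflamed mean was the higher one. Each sequence is the 250 bases before the RefSeq start site in build GRCm38.p6, written 5′ to 3′ on the gene's own strand, which is the minus strand for these genes. The windows are chr3:72967864-72968113 for Sis, chr1:128328319-128328568 for Lct and chr7:79848211-79848460 for Anpep. Capitals mark matches to the CDX letters TTTATG, searched on both strands.
Sis: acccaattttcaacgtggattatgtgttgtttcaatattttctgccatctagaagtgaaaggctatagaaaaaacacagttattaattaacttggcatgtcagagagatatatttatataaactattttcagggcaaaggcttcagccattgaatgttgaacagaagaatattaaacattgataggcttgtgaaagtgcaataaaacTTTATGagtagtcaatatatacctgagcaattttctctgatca
Lct: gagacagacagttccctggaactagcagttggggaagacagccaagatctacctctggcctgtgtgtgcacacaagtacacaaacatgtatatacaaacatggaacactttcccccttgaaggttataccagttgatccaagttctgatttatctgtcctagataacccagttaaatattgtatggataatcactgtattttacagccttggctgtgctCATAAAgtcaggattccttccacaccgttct
Anpep: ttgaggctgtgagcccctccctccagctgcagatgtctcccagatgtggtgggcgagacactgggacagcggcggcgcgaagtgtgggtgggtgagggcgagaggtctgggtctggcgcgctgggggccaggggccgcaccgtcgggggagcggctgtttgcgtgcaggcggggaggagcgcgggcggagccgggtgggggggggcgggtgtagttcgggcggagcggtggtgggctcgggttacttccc

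The Sis window held the CDX letters from base -43 to -38, counted back from the start site. These letters, which were set with the Sis sequence in view, occurred in 10.8% of 32851 RefSeq windows of this length. The searched letters did not overlap one another in the members' windows. The Lct window held the CDX letters from base -31 to -26. The Anpep window held none, and 72.8% of its bases were G or C, against 31.6% in the Sis window and a median of 52.4% over all windows. The letters CAAAGTCCA of HNF4, found in 0.384% of windows, matched in that of Treh. The windows of Mep1a, Enpep and Dpp4 held none of these letters, and Naaladl1 and Mep1b were not searched. A match or its absence describes the letters of the window only.

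In severely inflamed colon 5 members had values below the whole control range: Sis, Naaladl1, Mep1a, Enpep and Dpp4. In Anpep and Mep1b the groups overlapped, and Lct and Treh stayed at background on every array. The fit across all genes (limma, adjusted p under 0.05) also counted those 5 of the 9 members as lower and 0 as higher, where 5.03% of all 30747 genes were lower and 8.06% higher, together 13.1%. Over all genes, 9.17% had inflamed values wholly below the control range. The median difference was -1.15 log2 units over the 9 members and -0.01 over all genes. Since the members were chosen on this contrast, nothing is read from these counts.

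**Figure D1:**
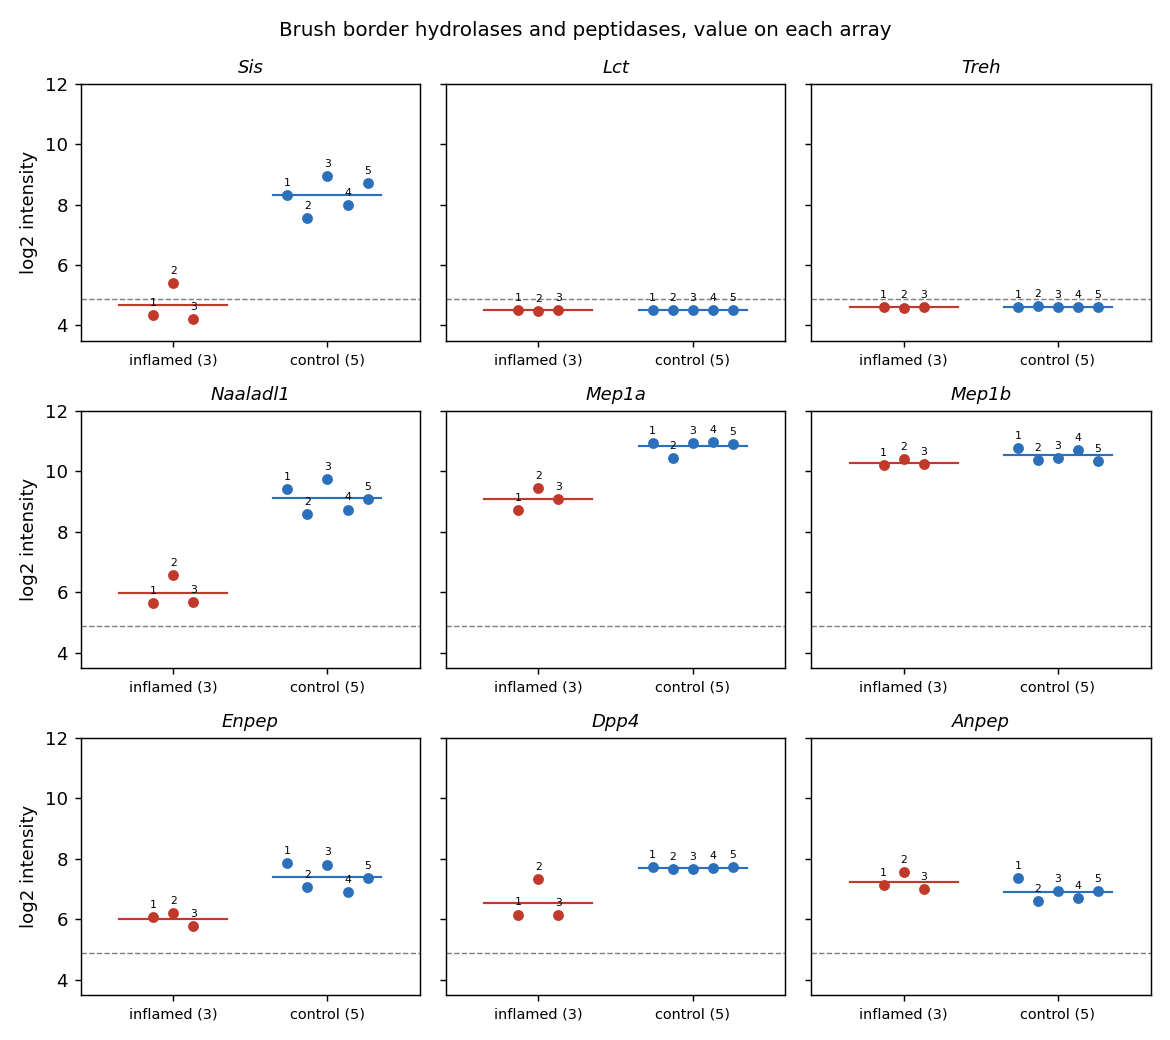
Log2 intensity (vertical axis) of each of the 9 genes on every array, inflamed on the left and control on the right of each panel. Points carry the replicate number, horizontal lines are group means and the dashed line is the median of all transcript clusters (4.88). Sis and Naaladl1 show the widest gaps between the groups, and Lct and Treh lie under the dashed line on all arrays.

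Sis, sucrase-isomaltase, digests sucrose and the branch points of starch. Its values were 4.36, 5.40 and 4.22 on inflamed replicates 1, 2 and 3, against 8.31, 7.56, 8.95, 8.0 and 8.71 on controls 1 to 5. Every inflamed array lay at least 2 log2 units under the lowest control. The group means were 4.66 ± 0.65 in inflamed colon (SD, n = 3) and 8.31 ± 0.55 in controls (SD, n = 5), a difference of -3.65 ± 0.39 (SE) or 12.5-fold. Inflamed replicates 1 and 3 lay under the median of all transcript clusters, 4.88, which stands here for the level below which a signal is not told from background. With values under 4.88 raised to it, Sis was at least 9.53-fold lower in inflamed colon. With the highest array median of the intronic control probe sets, 5.11, as the limit, a level chosen after the data were seen, the bound was at least 8.56-fold.

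Lct, lactase, which splits milk sugar in suckling animals, was at 4.50 on 7 of the 8 arrays and at 4.49 on inflamed replicate 2. Treh, which splits trehalose, was at 4.60, 4.59 and 4.60 on the inflamed arrays, against 4.65 on control 2 and 4.60 on the other controls. For Treh, 6 arrays shared the same value to 4 decimals. Both genes lay under 4.88 on all arrays, and identical values across arrays leave no level to compare, so a fall in either gene could not have been seen here.

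Naaladl1, a metallopeptidase related to glutamate carboxypeptidase, had the next largest difference among the 9 members. It was at 5.64, 6.56 and 5.69 on the inflamed arrays, against 9.41, 8.58, 9.74, 8.73 and 9.09 on the controls. The groups were separated by over 2 log2 units, and no array lay under the background limit. The means were 5.96 ± 0.52 in inflamed colon (SD, n = 3) and 9.11 ± 0.48 in controls (SD, n = 5), a difference of -3.15 ± 0.33 (SE) or 8.86-fold.

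Mep1a and Mep1b encode the alpha and beta subunits of meprin, a metalloprotease of the astacin family that can cleave matrix proteins, cytokines and mucin. Mep1a was at 8.73, 9.44 and 9.08 on the inflamed arrays, against 10.94, 10.43, 10.94, 10.98 and 10.91 on the controls. Its groups did not overlap, and control 2 stood below the other controls, which lay within 0.1 of each other. The means were 9.08 ± 0.35 in inflamed colon (SD, n = 3) and 10.84 ± 0.23 in controls (SD, n = 5), a difference of -1.76 ± 0.18 (SE) or 3.39-fold.

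For the partner subunit Mep1b the values were 10.21, 10.39 and 10.24 in inflamed colon, against 10.77, 10.36, 10.45, 10.71 and 10.33 in controls. Inflamed replicate 2 lay above controls 2 and 5, so the groups overlapped, and the difference was -0.24 ± 0.12 (SE). The dimmer Mep1b probe set ran from 6.45 to 6.51 in inflamed colon and from 6.49 to 6.57 in controls, with a difference of -0.03. On the dimmer probe set inflamed replicates 1 and 3 and controls 2, 3 and 5 shared 1 value, 6.51. It thus offered little level to compare. The brighter probe set placed the Mep1b groups within a narrow span while Mep1a values stood apart. The contrast between the subunits was not tested.

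Enpep, glutamyl aminopeptidase, removes acidic residues and breaks down angiotensin II. It was at 6.07, 6.20 and 5.77 on the inflamed arrays, against 7.85, 7.07, 7.81, 6.90 and 7.36 on the controls. The highest inflamed value was 6.20 and the lowest control value 6.90, with the controls spread more widely than the inflamed arrays. The means were 6.02 ± 0.22 in inflamed colon (SD, n = 3) and 7.40 ± 0.43 in controls (SD, n = 5), a difference of -1.38 ± 0.25 (SE) or 2.61-fold.

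Dpp4, dipeptidyl peptidase 4, inactivates incretin hormones and cuts proline-containing peptides. Its values were 6.16, 7.33 and 6.15 on inflamed replicates 1, 2 and 3, against 7.74, 7.66, 7.67, 7.70 and 7.73 on the controls. The controls spanned under 0.1 log2 units, inflamed replicates 1 and 3 lay well below them, and inflamed replicate 2 lay just below. The means were 6.55 ± 0.68 in inflamed colon (SD, n = 3) and 7.70 ± 0.03 in controls (SD, n = 5), a difference of -1.15 ± 0.26 (SE) or 2.23-fold. Without inflamed replicate 2 the difference was -1.55. The count of 5 members became 4, with Dpp4 dropping out, without inflamed replicate 1 or 3, without any 1 of the 5 controls, and with values floored at the background limit. No Dpp4 value lay under that limit, and with the floor its difference stayed at -1.15.

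Anpep, aminopeptidase N, trims the ends of peptides and was the 1 member with a higher inflamed mean. It was at 7.13, 7.55 and 7.0 on the inflamed arrays, against 7.36, 6.60, 6.93, 6.70 and 6.92 on the controls. Control 1 lay above inflamed replicates 1 and 3, and the groups overlapped. The means were 7.23 ± 0.29 in inflamed colon (SD, n = 3) and 6.90 ± 0.29 in controls (SD, n = 5), a difference of 0.32 ± 0.19 (SE), about the size of the spread within each group. Without inflamed replicate 2 it was 0.16, and leaving out each array in turn gave 0.16 to 0.44.

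Across the 7 members above background, inflamed replicate 2 was the highest inflamed array in all 7. It exceeded the mean of the other inflamed arrays by 1.11 for Sis, 1.18 for Dpp4, 0.90 for Naaladl1, 0.53 for Mep1a and 0.17 for Mep1b. Among the controls, control 2 was the lowest array in 5 of the 7 members, and control 1 the highest in 4. Sis and Naaladl1 were highest on control 3 and lowest on control 2, while Enpep was highest on control 1 and lowest on control 4. The members therefore differed among mice of 1 group in a partly shared order. This order was not particular to them. Inflamed replicate 2 was also the highest inflamed array for the enzymes Dpep1 and Alpi and the colonocyte genes Aqp8 and Slc26a3. It was not the highest for the enzyme Mgam or the colonocyte gene Car1. How many of all genes share this order was not counted.

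The sexes were mixed in both groups: Xist was at 10.65 to 11.28 on inflamed replicate 3 and controls 3, 4 and 5, and the other arrays carried Y-linked transcripts. Within the arrays with Y-linked transcripts (2 inflamed and 2 control) the differences were -3.05 for Sis, -2.89 for Naaladl1, -1.60 for Mep1a, -1.32 for Enpep, -0.95 for Dpp4, -0.26 for Mep1b and 0.36 for Anpep. Between the 1 inflamed and the 3 control arrays with Xist they were -4.33, -3.50, -1.86, -1.59, -1.55, -0.26 and 0.15 in the same order. All 7 differences had the same direction in either subset. For the 5 members whose groups did not overlap, any split of the arrays gives this direction, so nothing is read from it. The subset with Xist held only 1 inflamed array.

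Of 18 other enzymes of the brush border surface, 16 were measured, and 3 fell in inflamed colon while 0 rose (limma, Benjamini-Hochberg adjustment over all genes). Over all genes 5.03% fell and 8.06% rose, the shares that stand beside this count and those of the lists and markers below. Dpep1, a dipeptidase, was at 8.92, 9.96 and 9.11 on the inflamed arrays, against 11.01, 10.80, 11.23, 10.97 and 10.73 on the controls, and fell by 1.62 ± 0.24 (adjusted p = 0.00555). The carboxypeptidase Cpm fell by 0.96 ± 0.09 (adjusted p = 0.00121), and intestinal alkaline phosphatase, Alpi, fell by 1.2 ± 0.30 (adjusted p = 0.0407). Alpi no longer passed when inflamed replicate 1 or 3 or any of controls 2 to 5 was left out (adjusted p = 0.0644 to 0.138), nor with the floor (adjusted p = 0.076). No Alpi value lay under the floor, and its difference was unchanged by it. Without inflamed replicate 3, the AMP-cleaving ectoenzyme Nt5e was higher (a difference of 1.22, adjusted p = 0.0337) and the nucleotide pyrophosphatase Enpp3 lower (a difference of -0.36, adjusted p = 0.0475), so that 1 rose and 3 fell. Without inflamed replicate 2, Asah2 was lower (a difference of -0.59, adjusted p = 0.0117), so that 4 fell and 0 rose. Leaving out each array in turn gave 2 to 4 calls among the 16. The median difference over the 16 was -0.01, the same as over all genes, and 6 of them lay under the background limit on all arrays.

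Mgam, maltase-glucoamylase, is the closest relative of Sis and shares its role in starch digestion. It was at 10.75, 11.06 and 11.07 on the inflamed arrays, against 10.87, 10.85, 10.68, 10.85 and 10.63 on the controls. The groups overlapped, and the difference of 0.18 ± 0.09 did not pass (adjusted p = 0.241). It was named after its values were seen. The Sis and Mgam differences, -3.65 and 0.18, thus stand far apart, although the gap between them was not tested.

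**Figure D2:**
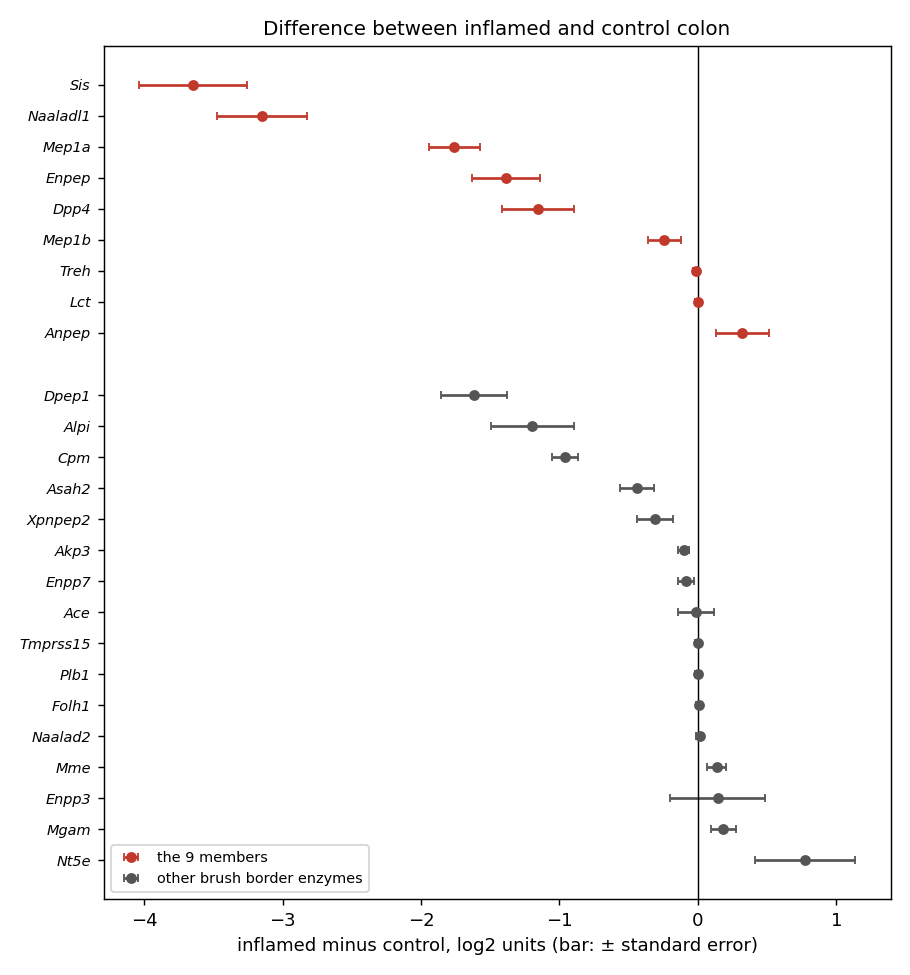
Inflamed minus control difference in log2 units (horizontal axis, bars ± standard error from limma, 3 inflamed and 5 control arrays) for the 9 genes and for 16 other brush border enzymes. Sis and Naaladl1 lie beyond -3, and Dpep1 is the lowest of the other enzymes at -1.62. Nt5e is the highest gene shown, at 0.77 ± 0.36, and Mgam and Anpep lie slightly above 0.

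Relatives of these enzymes that act elsewhere were listed too. Of 21 measured, 5 fell and 1 rose, with a median difference of -0.01. Npepps, a cytosolic aminopeptidase of the same family as Anpep and Enpep, rose by 0.47 ± 0.05 (adjusted p = 0.00143). Of the 5 relatives of Dpp4 measured, 2 fell. Fap, a fibroblast protease, fell by 0.34 ± 0.08 (adjusted p = 0.0262). Dpp10, which modulates potassium channels and has no peptidase activity, was under 4.88 on all 3 inflamed arrays and on no control. Its measured difference was -0.80 ± 0.15 (adjusted p = 0.0143), but with the floor at 4.88 it was at least 1.38-fold lower and did not pass (adjusted p = 0.0594). The other relatives of Dpp4 did not pass, with differences of -0.15 for Dpp6, 0.07 for Dpp8 and 0.15 for Dpp9. Klb, a co-receptor with glycosidase-like domains as in Lct, was under 4.88 on all 3 inflamed arrays and on 3 of the 5 controls. Its measured difference was -0.77 ± 0.19 (adjusted p = 0.0414), and with the floor it was at least 1.07-fold lower and did not pass (adjusted p = 0.644). The remaining falls were those of Gaa, by 0.33 ± 0.05 (adjusted p = 0.00671), and Ganc, by 0.27 ± 0.07 (adjusted p = 0.0397). The Ganc groups met at 6.66, the value of inflamed replicate 2 and control 2. The Fap call ended without any 1 inflamed array or control 4 or 5 (adjusted p = 0.0505 to 0.0934), and the Klb call without any 1 array other than control 4 (adjusted p = 0.0514 to 0.13). With the sex pattern as a block both calls ended as well (adjusted p = 0.0517 for Fap and 0.0791 for Klb), and 3 relatives passed. Without inflamed replicate 3 or control 5, 3 passed too. Npepps and Dpp10 were still called in each of these fits, so at least 1 of the Gaa and Ganc calls ended as well.

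Peptidases of the cytosol, which finish the breakdown of absorbed di- and tripeptides or of proteasome products, rose where they passed the test. Of 12 measured, 5 rose and 0 fell, against 8.06% of all genes rising. Among the 5, Nln passed narrowly, with a rise of 0.21 ± 0.06 (adjusted p = 0.0499). Nln no longer passed without inflamed replicate 1 or any 1 of controls 1 to 5, with the floor, or with the sex pattern as a block. Lap3, leucine aminopeptidase, was at 9.64, 9.66 and 9.47 on the inflamed arrays, against 8.87, 8.61, 8.03, 8.5 and 8.28 on the controls, and rose by 1.13 ± 0.18 (adjusted p = 0.00712). Prep, prolyl endopeptidase, rose by 0.64 ± 0.07 (adjusted p = 0.00176), Xpnpep1, an aminopeptidase for proline-containing peptides, by 0.30 ± 0.06 (adjusted p = 0.0187), and bleomycin hydrolase, Blmh, by 0.26 ± 0.05 (adjusted p = 0.0173). Xpnpep1 no longer passed when inflamed replicate 1 or 3 was left out (adjusted p = 0.0719 and 0.0577), and without inflamed replicate 1 only 3 of the 12 passed.

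Among transcription factors of the enterocyte, 4 of 14 measured fell and 1 rose. Isx, an intestinal homeobox factor that represses vitamin A uptake genes, fell by 0.83 ± 0.16 (adjusted p = 0.0178). Cdx1 fell by 0.51 ± 0.10 (adjusted p = 0.0164) and Klf5, a factor of crypt cells, by 0.32 ± 0.04 (adjusted p = 0.00275). Hnf4a fell by 0.30 ± 0.08 (adjusted p = 0.0429). It no longer passed when inflamed replicate 1 or any 1 of controls 1 to 4 was left out. The Hnf4a call also ended with the floor and with array medians made equal. Cdx2, a known activator of Sis, was at 9.47, 9.35 and 9.33 on the inflamed arrays, against 9.58, 9.67, 9.67, 9.58 and 9.39 on the controls, a difference of -0.20 ± 0.07 that did not pass (adjusted p = 0.118). Prdm1, which represses the adult enzyme programme in the suckling gut and is also a factor of activated lymphocytes, rose by 1.73 ± 0.16 (adjusted p = 0.00112). Without inflamed replicate 1, 3 of the 14 passed, and Cdx1 no longer did when inflamed replicate 1 or 3 was left out (adjusted p = 0.065 and 0.053).

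Of 10 transporters that carry the sugars, peptides and amino acids released by these enzymes, or assist such carriers, 1 fell and 0 rose. The fructose transporter Slc2a5 was at 5.33, 5.48 and 5.41 on the inflamed arrays, against 6.30, 5.94, 6.09, 5.86 and 6.27 on the controls, and fell by 0.69 ± 0.11 (adjusted p = 0.00757). The peptide transporter Slc15a1 and the glucose transporter Slc5a1 differed by -0.72 ± 0.35 (adjusted p = 0.227) and -0.47 ± 0.16 (adjusted p = 0.112). Without inflamed replicate 2, 2 of the 10 passed.

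Calls were absent among general epithelial markers and went both ways among markers of mature colonocytes. Of 8 epithelial genes none passed the test by limma (1 at an unadjusted p under 0.05, Cdh17), and their differences ran from -0.01 to 0.25. Epcam was at 12.23 ± 0.04 in inflamed colon (SD, n = 3) and 12.24 ± 0.04 in controls (SD, n = 5), and Vil1, a core protein of microvilli, at 11.17 ± 0.09 in inflamed colon and 11.11 ± 0.12 in controls. Of 8 colonocyte markers 4 fell and 1 rose: the water channel Aqp8 fell by 2.15 ± 0.41 (adjusted p = 0.0151), the chloride exchanger Slc26a3 by 1.30 ± 0.32 (adjusted p = 0.0389), the peptide guanylin, Guca2a, by 1.23 ± 0.19 (adjusted p = 0.00688) and the carbonic anhydrase Car1 by 0.29 ± 0.05 (adjusted p = 0.0144), while the keratin Krt20 rose by 0.58 ± 0.12 (adjusted p = 0.0199). List means lay between 11.66 and 11.72 on inflamed arrays and 11.46 and 11.63 on controls for the epithelial genes, and between 10.78 and 11.29 on inflamed arrays and 11.51 and 11.74 on controls for the colonocyte genes.

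**Figure D3:**
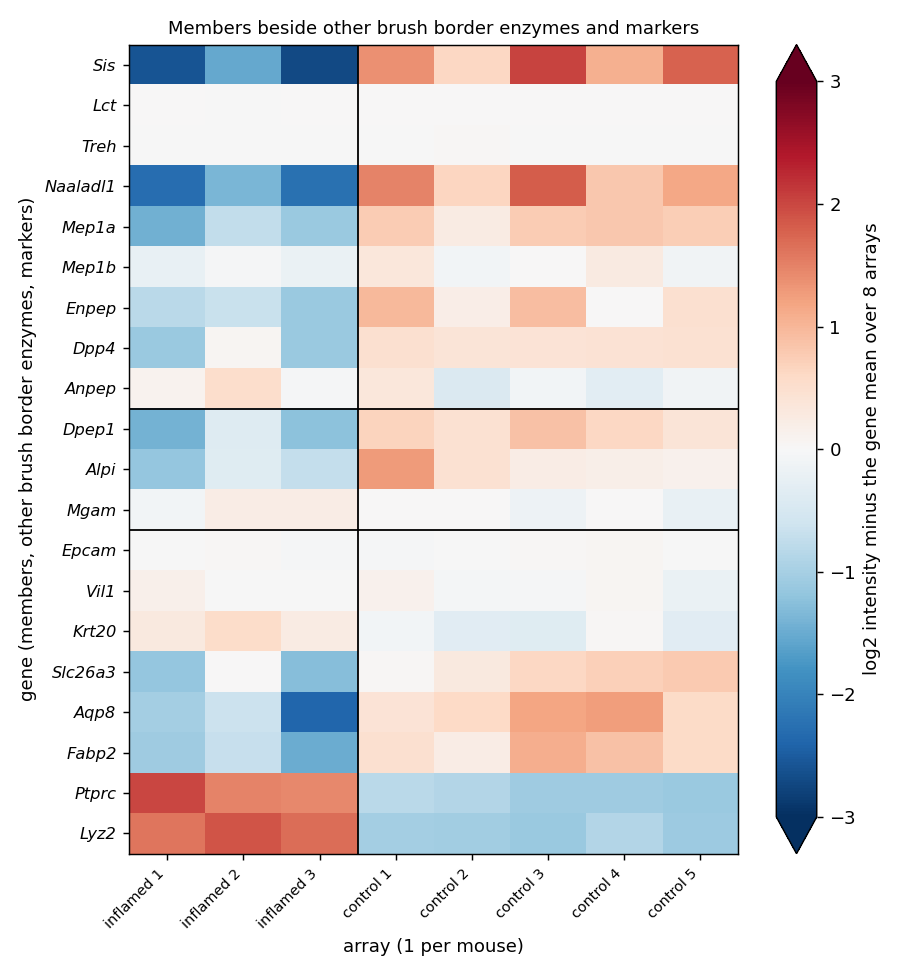
Log2 intensity minus the gene's mean over the 8 arrays (colour) for the 9 genes, 3 other brush border enzymes and 8 markers (rows) on each array (columns, inflamed on the left). Sis, Naaladl1, Mep1a, Enpep and Dpep1 are blue on inflamed arrays, Epcam and Vil1 show almost no colour, and the leukocyte genes Ptprc and Lyz2 are red on inflamed arrays.

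Leukocyte and smooth muscle markers differed between the groups. All 8 leukocyte genes rose, among them Ptprc (CD45) by 2.62 ± 0.14 (adjusted p = 0.000135), with list means of 8.30 to 8.36 on inflamed arrays and 5.68 to 5.97 on controls. Of 5 smooth muscle genes 4 fell, among them Acta2 by 0.73 ± 0.12 (adjusted p = 0.00801), with list means of 10.35 to 10.48 on inflamed arrays and 10.88 to 11.45 on controls. Of 6 pericyte and endothelial genes 1 fell, Rgs5 by 0.61 ± 0.16 (adjusted p = 0.0486), and of 5 fibroblast genes 0 passed by limma (2 at an unadjusted p under 0.05, Col1a2 and Col3a1). The part of these cells in the Dpp4, Enpep and Anpep values was not tested.

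Of 9 measured genes typical of small intestine 4 fell and 1 rose. Fabp2, a fatty acid binding protein, was at 10.46 ± 0.41 in inflamed colon (SD, n = 3) and 12.20 ± 0.34 in controls (SD, n = 5) and fell by 1.73 ± 0.24 (adjusted p = 0.00457), and Fabp6, an ileal bile acid binding protein, fell by 1.82 ± 0.40 (adjusted p = 0.0259). Apob, the apolipoprotein of chylomicrons, fell by 1.66 ± 0.27 (adjusted p = 0.00886), and the ileal bile acid transporter Slc10a2 by 0.95 ± 0.17 (adjusted p = 0.0128). Apoa1 and Apoa4 stayed between 4.99 and 5.37 on all arrays, near the medians of the intronic control probe sets (4.92 to 5.11). The rise was that of Lyz1, whose probes may share signal with the leukocyte gene Lyz2. Of 8 measured pancreatic acinar genes 6 lay under 5.4 and did not pass, while Sycn, a zymogen granule protein, fell by 4.36 ± 0.41 (adjusted p = 0.00105) and the elastase Cela1 by 1.04 ± 0.23 (adjusted p = 0.0256). The distal hindgut gene Hoxb13 was at 6.12, 6.56 and 5.38 on the inflamed arrays, against 5.65, 6.74, 6.93, 6.04 and 6.95 on the controls, a difference of -0.45 ± 0.39. Its relative Hoxd13 was at 7.69, 8.17 and 5.25 on the inflamed arrays, against 4.53, 4.95, 6.28, 4.9 and 7.59 on the controls, a difference of 1.38 ± 0.91. Both varied within each group, the groups overlapped, and 0 of 6 such Hox genes passed by limma (0 at an unadjusted p under 0.05). The part of sampled region in the values of the members was not tested.

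Some genes followed the members closely over the 8 arrays, measured by the root mean square distance between values centred on each gene's mean. This distance includes the difference between the groups and says nothing of shared function. Nearest to the mean profile of the 9 members were the cytochrome P450 genes Cyp2d22 (0.079 log2 units) and Cyp4f13 (0.080), then the steroid dehydrogenase Hsd17b2 (0.098), Cnksr3 (0.11) and the vitamin B12 carrier Tcn2 (0.12). Nearest to Sis was the sulfotransferase Sult1c2 (0.41), to Naaladl1 Gm21885 (0.22), to Enpep Zan (0.22) and to Mep1a Pm20d1 (0.11). Nearest to Dpp4 was Akr1c14 (0.071), which shared its high value on inflamed replicate 2, with 8.02, 8.06 and 9.20 as its lowest, middle and highest inflamed values. Nearest to Mep1b was the carnitine transporter Slc22a5 (0.060) and to Anpep Gm20199 (0.12), while Lct and Treh were nearest to the likewise flat Wdr72 and Fam189b.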

How the data were processed

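Colon RNA of 8 mice was measured on 1 Affymetrix array each. Per the submitters' processing notes, the authors made the deposited log2 values per probe set with Affymetrix Expression Console and RMA. Versions, settings and genome build: not given in the sources used here. That the scale is log2 was read from the range of the numbers. RMA compresses low signals, so folds near background are understated, and the number of arrays limits precision. Of 72688 probe sets, 65956 were transcript clusters, and the controls were left out of tests. Array medians lay between 4.81 and 4.91.

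Probe sets were named from the platform annotation, updated through RefSeq (1484 symbols): 31388 had 1 gene and 1362 had several and were left unnamed. The brightest probe set was used for the 497 genes with more than 1. Inflamed and control values were compared with limma 3.58.1 in R 4.3.3 over all 30747 genes, with Benjamini-Hochberg adjustment at 0.05; ± is the SE of a difference. In all, 4027 genes passed, and 8768 had an unadjusted p under 0.05. The fit was tested on simulated data.

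The members and lists were chosen with earlier results of these data known. From each list other than the markers the text names up to 4 genes past the threshold with the largest differences. Mgam, Asah2, Cdx2, Hnf4a, Slc15a1, Slc5a1, Dpp6, Dpp8, Dpp9, Gaa, Ganc, Nln and the marker genes given with differences were picked after their values were seen. Ggt1, Lnpep, Gba3, Defa24, Pnlip, Amy2a5 and Pdgfra had no named probe set, and some other list genes are not reported here. Alternatives covered scaling, a floor, a dim filter, probe set choice, variance model, array weights, blocks and each array left out.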

Additional observations from a re-analysis of the deposited data

Results flagged for a closer look

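Among 25 genes, the 9 members and the named genes of the lists, 3 had a control array that stood apart from the other controls by Dixon's test, which flags about 1 group in 20 by chance. Mep1a was at 10.43 on control 2, with the other controls at 10.91 or above. Treh was at 4.65 on control 2 and at 4.60 on the others, all under the background limit. Alpi was at 9.69 on control 1, with the others between 8.55 and 8.88.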

How the results depend on the processing

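Replicate numbers did not pair the arrays: same-numbered deviations from the group means correlated at -0.29, -0.05 and 0.07. With the replicate number as a block, 0 genes passed by limma (4922 at an unadjusted p under 0.05), and so 0 members (5 unadjusted) and 0 genes of each list. Controls 4 and 5 have no inflamed array of their number, so under this block they add nothing to the comparison. The block also leaves few degrees of freedom to estimate the spread. The 5 members lower in inflamed colon kept that direction under all 17 alternatives, and Sis, Naaladl1, Mep1a and Enpep were called under 16 of them, Dpp4 under 8. Since the members were chosen on this contrast, neither their direction nor these counts support the differences. Leaving out 1 array gave 2514 to 4576 genes (2514 without inflamed replicate 1), 2 to 4 other brush border enzymes, 3 to 5 relatives, 3 to 6 cytosolic peptidases, 3 to 6 transcription factors, 1 to 2 transporters, and a median member difference of -1.48 to -0.95 (-1.48 without inflamed replicate 2). A floor at the background limit and the sex block each left 3 relatives; leaving out dim genes and array weights each gave 8 cytosolic peptidases and, like quantile normalization, 2 transporters. The cause was not tested. Signal near background limits Sis in inflamed colon, Lct and Treh.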

Other observations

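A pair of surface enzymes from the wider brush border list varied among the inflamed mice. Enpp3, an ectonucleotide pyrophosphatase also found on mast cells and basophils, was at 4.77, 4.92 and 6.36 on inflamed replicates 1, 2 and 3, against 5.15 to 5.41 on the controls, and did not pass (adjusted p = 0.815). Nt5e (CD73), which makes adenosine from AMP, was at 8.67, 9.08 and 7.55 on the inflamed arrays, against 7.05 to 7.92 on the controls (adjusted p = 0.209). Without inflamed replicate 3 both passed, Enpp3 lower and Nt5e higher (adjusted p = 0.0475 and 0.0337). Both were singled out after their values were seen.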
